A study of Mus musculus with 4 samples.

Results

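The 4 genes described here encode RNA-binding proteins that set which exons are kept in epithelial and mesenchymal cells: Esrp1, Esrp2, Rbm47 and Rbfox2. Every Slug or Snail peak that touched one of these genes or the 50 kb on either side of its RefSeq span was taken, and there were 49 such peaks among 69987 in all. The 49 comprised 26 of 41612 Slug peaks and 23 of 28375 Snail peaks. Slug (gene Snai2) was mapped by chromatin immunoprecipitation and sequencing (ChIP-seq) in pBl.1G, labelled an epithelial line with high Slug. Snail (gene Snai1) was mapped in pBl.3G, labelled mesenchymal with high Snail. Both are mouse MMTV-PyMT breast cancer lines, in which the mouse mammary tumour virus promoter drives the polyoma middle T oncogene, and neither was treated. The labels do not say whether each line is 1 clone. Each factor has 1 ChIP library, and the input DNA libraries of the series were not used here. Factor, antibody and cell line differ together between the lists and cannot be told apart. For pBl.1G the antibody was a rabbit monoclonal against Slug. For pBl.3G its label names both proteins (Anti-SNAIL + SLUG), so Snail and Slug cannot be told apart in the Snail list.

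Esrp1 and Esrp2 are the epithelial splicing regulatory proteins, which bind GU-rich RNA and favour the epithelial splice forms of transcripts such as Fgfr2, Cd44 and Ctnnd1. Their loss is a known part of the epithelial-mesenchymal transition (EMT). Rbm47 binds RNA through its recognition motifs, acts in splicing and in the stability of messenger RNA, and is known as a suppressor of breast cancer progression. Rbfox2 binds the element UGCAUG and takes part in the splicing pattern of mesenchymal as well as many other cells, so it is not an epithelial marker. Slug and Snail are zinc finger repressors that bind the E-box CAGGTG, and epithelial genes are among their known targets. Peak lists hold no expression values, so the epithelial or mesenchymal state of the lines could not be checked against marker genes.

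The sequences below show some of the annotated start sites that the peaks met. RefSeq start-site windows of GRCm38.p6 run from 250 bases before to 50 bases after a start, and 1 of the 4 genes, Rbm47, had entries. The remaining windows printed belong to neighbouring genes overlapped by a peak of the set. Windows of Gm26725 and Pla2g15 and a further window of Slc7a6 are not printed. Each was covered in full by a Snail peak of the set and held no CAGGTG. Capitals mark CAGGTG, which reads CACCTG on the other strand, and both strands were searched. The first sequence is the window of 1810019D21Rik, a long noncoding RNA with the synonym Esrp2-as, at chr8:106135150-106135449 on the plus strand. It lies inside Esrp2 under the only Slug peak of that gene and is shown for its number of E-boxes.
1810019D21Rik: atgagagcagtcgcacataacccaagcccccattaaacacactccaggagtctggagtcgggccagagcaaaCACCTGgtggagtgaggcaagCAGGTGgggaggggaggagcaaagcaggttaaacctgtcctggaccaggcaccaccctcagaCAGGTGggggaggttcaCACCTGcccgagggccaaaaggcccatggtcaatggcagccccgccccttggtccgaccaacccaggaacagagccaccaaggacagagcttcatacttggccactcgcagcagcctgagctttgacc
The next windows are the first and second of Rbm47, at chr5:66151905-66152204 and chr5:66150929-66151228 on the minus strand, shown because a Snail peak lies over both starts.
Rbm47 first start: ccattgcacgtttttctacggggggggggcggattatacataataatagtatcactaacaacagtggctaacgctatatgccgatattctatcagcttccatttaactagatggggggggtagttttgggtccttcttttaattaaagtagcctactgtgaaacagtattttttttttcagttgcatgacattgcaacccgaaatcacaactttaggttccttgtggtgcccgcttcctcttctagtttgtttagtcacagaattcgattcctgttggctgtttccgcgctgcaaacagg
Rbm47 second start: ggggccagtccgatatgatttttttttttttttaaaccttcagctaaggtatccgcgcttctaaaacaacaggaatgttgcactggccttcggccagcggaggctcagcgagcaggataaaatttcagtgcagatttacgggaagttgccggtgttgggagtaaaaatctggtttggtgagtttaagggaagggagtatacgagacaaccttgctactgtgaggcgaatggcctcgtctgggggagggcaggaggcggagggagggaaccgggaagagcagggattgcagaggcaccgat
The last is a window of Slc7a6, an amino acid transporter gene, at chr8:106168604-106168903 on the plus strand. It lies under the Snail peak of a site shared by both lists, but outside the Slug peak of that site. Of the Slc7a6 windows met by the Snail peak, it is the one with a CAGGTG.
Slc7a6: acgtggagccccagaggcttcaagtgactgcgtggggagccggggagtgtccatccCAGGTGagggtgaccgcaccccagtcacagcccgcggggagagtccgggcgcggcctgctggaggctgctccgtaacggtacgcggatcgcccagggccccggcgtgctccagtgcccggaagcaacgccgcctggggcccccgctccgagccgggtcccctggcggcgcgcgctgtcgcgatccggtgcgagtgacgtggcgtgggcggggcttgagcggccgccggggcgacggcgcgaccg

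The window inside Esrp2 held 4 CAGGTG E-boxes, whose first bases lie 178, 157, 95 and 78 bases before the start of 1810019D21Rik. All 4 fell inside the Slug peak, which covers 279 bases of the window. Windows with that many were rare: 18 of 32817 windows (0.0548%) held at least 4, and at least 1 was present in 20.2%. Among the 1054 windows overlapped by a Slug peak, 39.2% held at least 1 and 7 held at least 4. Among the 11993 windows overlapped by a Snail peak, 17.0% held at least 1 and 1 held at least 4. No Snail peak touched this window. The printed Slc7a6 window held 1 CAGGTG, inside the Snail peak, and no Slug peak touched that window. None of the 3 Rbm47 windows held this motif. A Snail peak covered 229 bases of the first and all 300 of the second, and no peak met the third. Of the broader form CANNTG, the Rbm47 windows held 1, 0 and 3 matches in the same order, against a median of 1 over all windows. These letters describe the windows only, and the wider peak sequences were not searched because no genome was used here. The window at Esrp2 was singled out after its motif count was seen.

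Esrp1 (gene ID 207920, chromosome 4, 11331933 to 11386783) had no peak of either factor inside its 54.9 kb, and all 4 peaks of its window lay outside. The Snail peak at 11321917 to 11322951 scored 1777, rank 380 of the Snail list, and was the highest-scoring Snail peak of the 49. It lay 8.98 kb beyond the low-coordinate end of Esrp1 but covered the end of the neighbouring gene Dpy19l4. The score is the peak caller's own value, whose scale the files do not state, and it was used only to rank a peak within its own list. The Slug peak at 11300266 to 11300595 scored 517, rank 1008 of the Slug list, and lay inside Dpy19l4 at 31.3 kb from Esrp1. It was the highest-scoring of the 26 Slug peaks. The other 2 Slug peaks lay 33.0 and 40.3 kb beyond the high-coordinate end and scored 51.1 and 126, the first of them close to the lowest score in the list of 50. Esrp1 was thus the gene with the fewest peaks, and its strongest ones were nearer to the ends of Dpy19l4 than to its own.

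Esrp2 (gene ID 77411, chromosome 8, 106130319 to 106137193), the paralog of Esrp1, was the shortest of the 4 genes at 6.88 kb. Near its high-coordinate end lay a Slug and a Snail peak. The Slug peak at 106135171 to 106135462 lay inside the gene, 1.73 kb from that end, over the E-box cluster printed above, with a score of 187 (rank 7624). The Snail peak at 106137921 to 106138673 lay 0.728 kb outside the same end with a score of 532 (rank 7392). The peaks did not overlap and were 2.46 kb apart. Both touched the span of the antisense gene 1810019D21Rik, the Slug peak at its start and the Snail peak near its far end.

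Further out, the Esrp2 window took in sites of other genes. A Snail peak (score 781) covered the low-coordinate end of Pla2g15, a lysosomal phospholipase gene, 12.7 kb away. At Slc7a6 a Snail peak of 1337 bp with a score of 1391 (106168377 to 106169713) contained the whole of a Slug peak of 359 bp with a score of 355 (106169064 to 106169422). This shared site was 31.2 kb from Esrp2 and 0.158 kb inside Slc7a6 from its low-coordinate end. The remaining 2 Slug peaks, with scores of 57.2 and 55.7, lay inside Nfatc3, which encodes a transcription factor regulated by calcineurin.

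Rbm47 (gene ID 245945, chromosome 5, 66016549 to 66151954) had the most Slug peaks, 10, and 7 Snail peaks. Near its first start lay a peak of each list, of which the Snail peak alone met the start. The Snail peak at 66150700 to 66152133 scored 448 (rank 8319) and covered the high-coordinate end, which the minus strand of its start-site windows makes the first start. The Slug peak at 66153727 to 66154052 scored 502 (rank 1072, within the top 2.58% of the Slug list) and lay 1.77 kb upstream of that start. The gap between them was 1.59 kb. The same Snail peak also covered the low-coordinate end of the noncoding gene Gm26725, whose span holds the Slug peak.

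Inside Rbm47 the peaks were weak within their lists. The 5 internal Slug peaks scored between 50.6 and 82.8, and only the highest of them exceeded the Slug list median of 81.1. The 3 Snail peaks deeper in the gene scored 58.3, 66.0 and 126, all below the Snail median of 151. An internal Slug peak at 66089581 to 66089768 and a Snail peak at 66089939 to 66090644 were 0.170 kb apart without touching. Neither factor had a peak over the third start of Rbm47, at 66098179.

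The flanks of Rbm47 held the other shared site of the set. A Slug peak (65991605 to 65992111, score 199) and a Snail peak (65991574 to 65992014, score 90.1) overlapped by 410 bp, and their midpoints were 64 bp apart. This site lay 24.4 kb beyond the low-coordinate end, inside the noncoding gene 9130230L23Rik, which held a further Slug peak with a score of 117. On the other flank a Slug peak (score 126) lay 10.3 kb and a Snail peak (score 216) lay 13.3 kb from the start. A second pair, Snail (score 203) and Slug (score 65.8), lay 0.389 kb apart near the 50 kb limit, at 48.0 and 49.0 kb. In the Rbm47 window, 5 of 10 Slug and 5 of 7 Snail peaks were within 3 kb of a peak of the other factor. Over the whole lists 20.9% of Slug and 30.0% of Snail peaks were. That distance was picked after the peaks had been seen.

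Rbfox2 (gene ID 93686, chromosome 15, 77078990 to 77308434) had the most Snail peaks, 12, with 9 Slug peaks, and no site shared by both. Snail peaks lay near both ends of its 229 kb. The peak at 77306346 to 77307568 scored 1379 (rank 1227) and was 0.866 kb inside the high-coordinate end. The peak at 77079827 to 77080560 scored 103 and was 0.837 kb inside the low-coordinate end. The other 3 Snail peaks in the gene, with scores of 57.7, 63.0 and 245, lay close to one another between 77150257 and 77154145.

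Slug peaks of Rbfox2 were spread through the gene, although those at 77257753 to 77257939 and 77257960 to 77258174 nearly adjoin. Deposited peaks that nearly adjoin were counted separately here and for Snail, so the peak numbers depend on how the caller split them. The 7 internal peaks lay between 15.4 and 101 kb from the nearer end, and their scores were 64.1, 80.9, 91.8, 157, 202, 210 and 228. None of them was within 3 kb of a Snail peak, where 20.9% of all Slug peaks were. Their gaps to the nearest one ran from 13.8 to 69.1 kb, beside a median of 26.0 kb over the whole Slug list. In the flanks, 4 Snail peaks with scores of 52.6 to 91.9 and then 2 Slug peaks with scores of 54.2 and 60.3 lay beyond the high-coordinate end. Another 3 Snail peaks lay beyond the low-coordinate end, the highest at 785 inside the myoglobin gene Mb. The 2 Slug peaks beyond the high-coordinate end were 1.91 and 2.43 kb from a Snail peak. In Rbm47, 1 of the 5 internal Slug peaks was within 3 kb of a Snail peak, and the others were 3.13 to 27.6 kb from one. These gaps come from 1 library of each factor and have no replicate check.

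**Figure D1:**
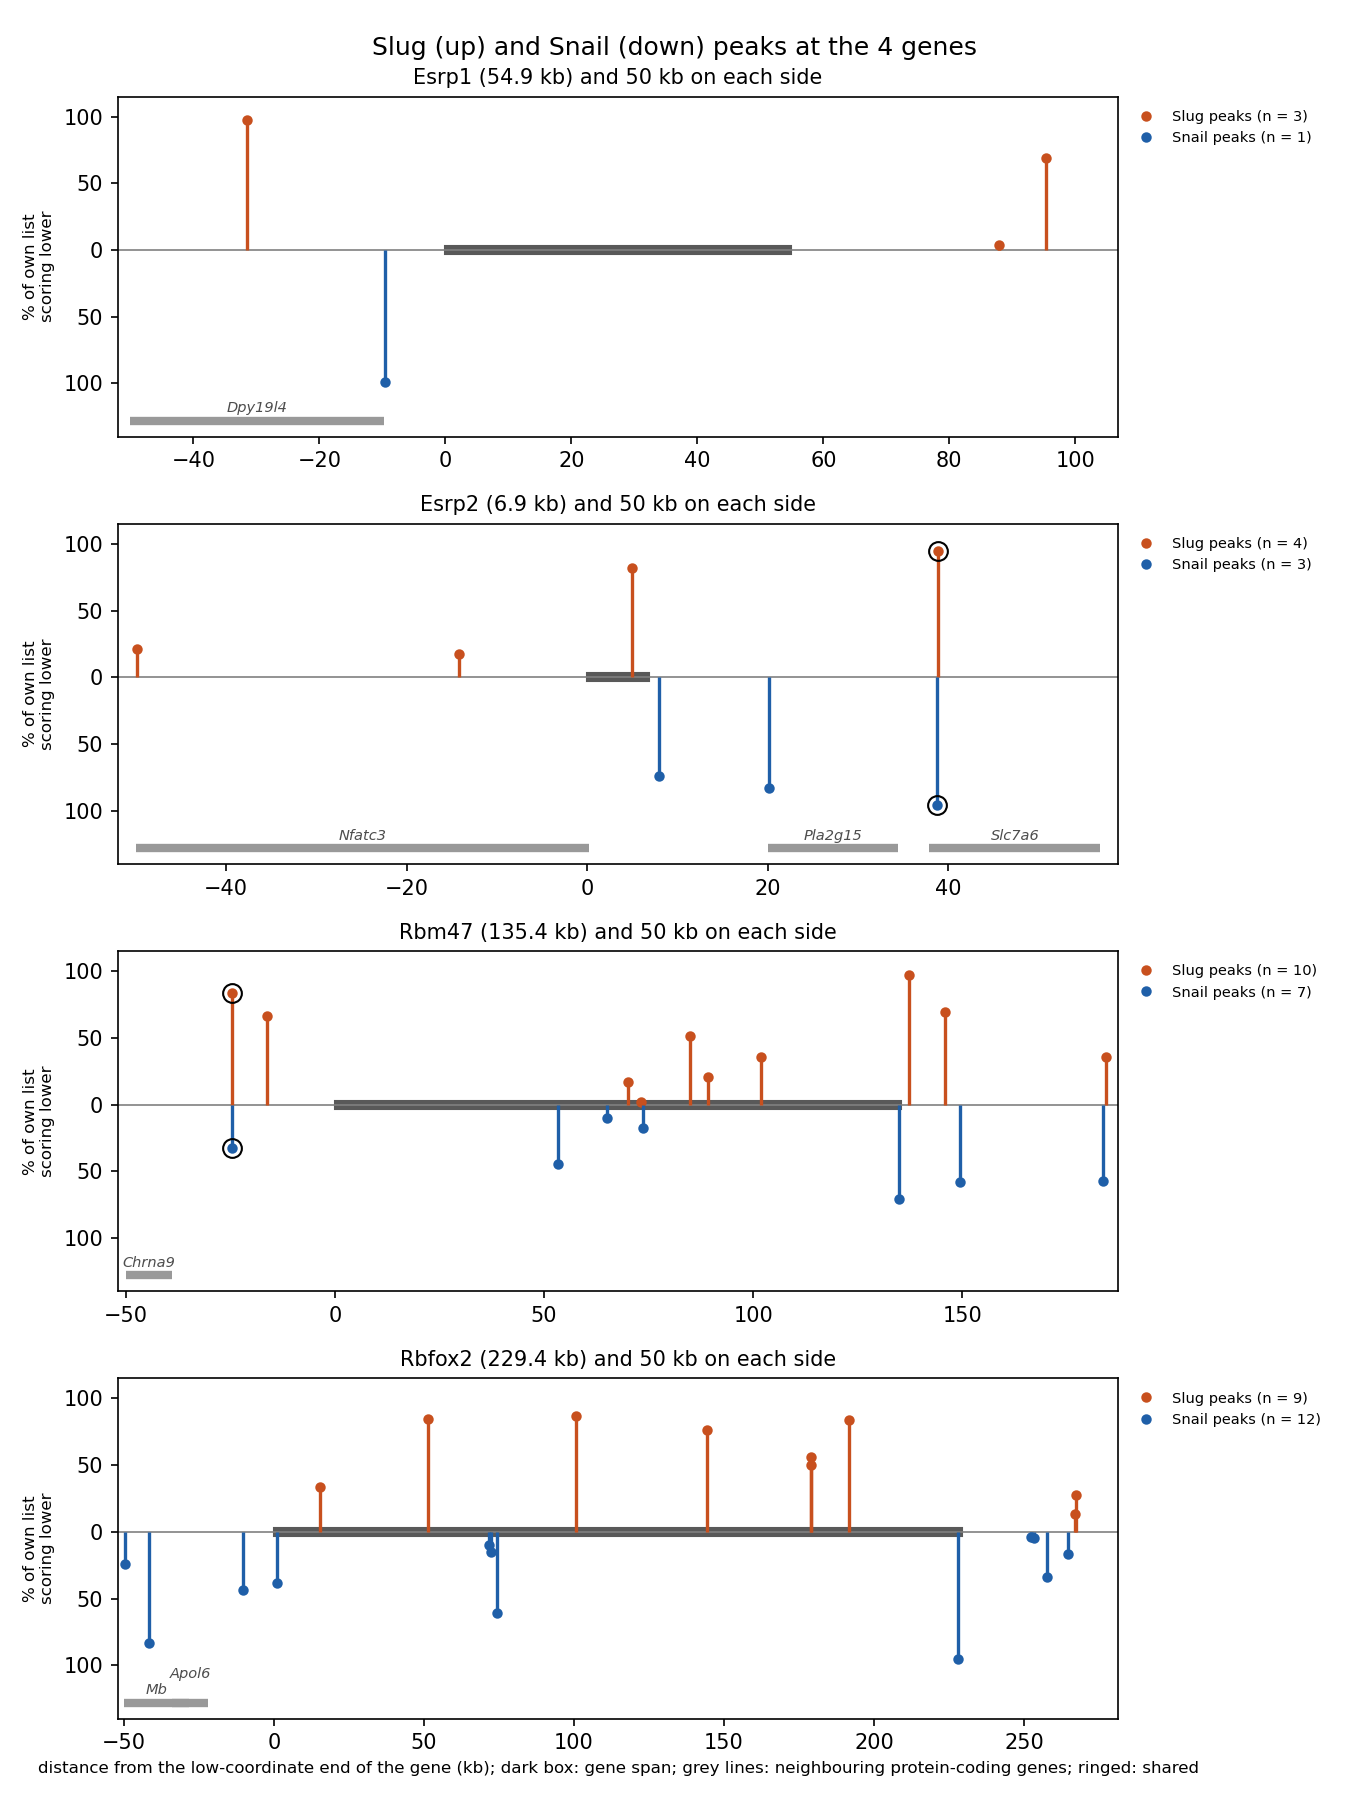
Position and rank of all 49 peaks, with 1 panel for each gene: the horizontal axis is the distance in kb from the low-coordinate gene end, and the height is the percentage of the peak's own list that scored lower (Slug upward, Snail downward). Esrp1 has no peak in its span, and the ringed shared sites lie outside Esrp2 and Rbm47.

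Within 1 kb of the ends of the 4 genes lay Snail peaks and no Slug peak. Snail had a peak within 1 kb of an end at 3 of the 4 genes (Esrp2, Rbm47 and Rbfox2), and 51.3% of all 21887 protein-coding genes had one. Slug had none within 1 kb of an end at any of the 4, and 13.0% of protein-coding genes had one. Its nearest were 1.73 kb from an end at Esrp2 and 1.77 kb at Rbm47. Counts of 3 and 0 among 4 genes are too few to set apart from these shares. Inside the spans, 3 of the 4 genes had a Slug peak against 37.2% of protein-coding genes, and 2 had a Snail peak against 58.7%. Long genes hold more peaks: among the genes of the longest span quintile, to which Rbm47 and Rbfox2 belong, 83.1% had an internal Slug peak and 75.9% an internal Snail peak. In the quintile of Esrp1, the gene without any, these shares were 50.8% and 71.9%, and in that of Esrp2 16.4% and 53.9%. Of the 3 Rbm47 start windows, 2 met a Snail peak and none a Slug peak, where 36.5% and 3.21% of all windows did.

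**Figure D2:**
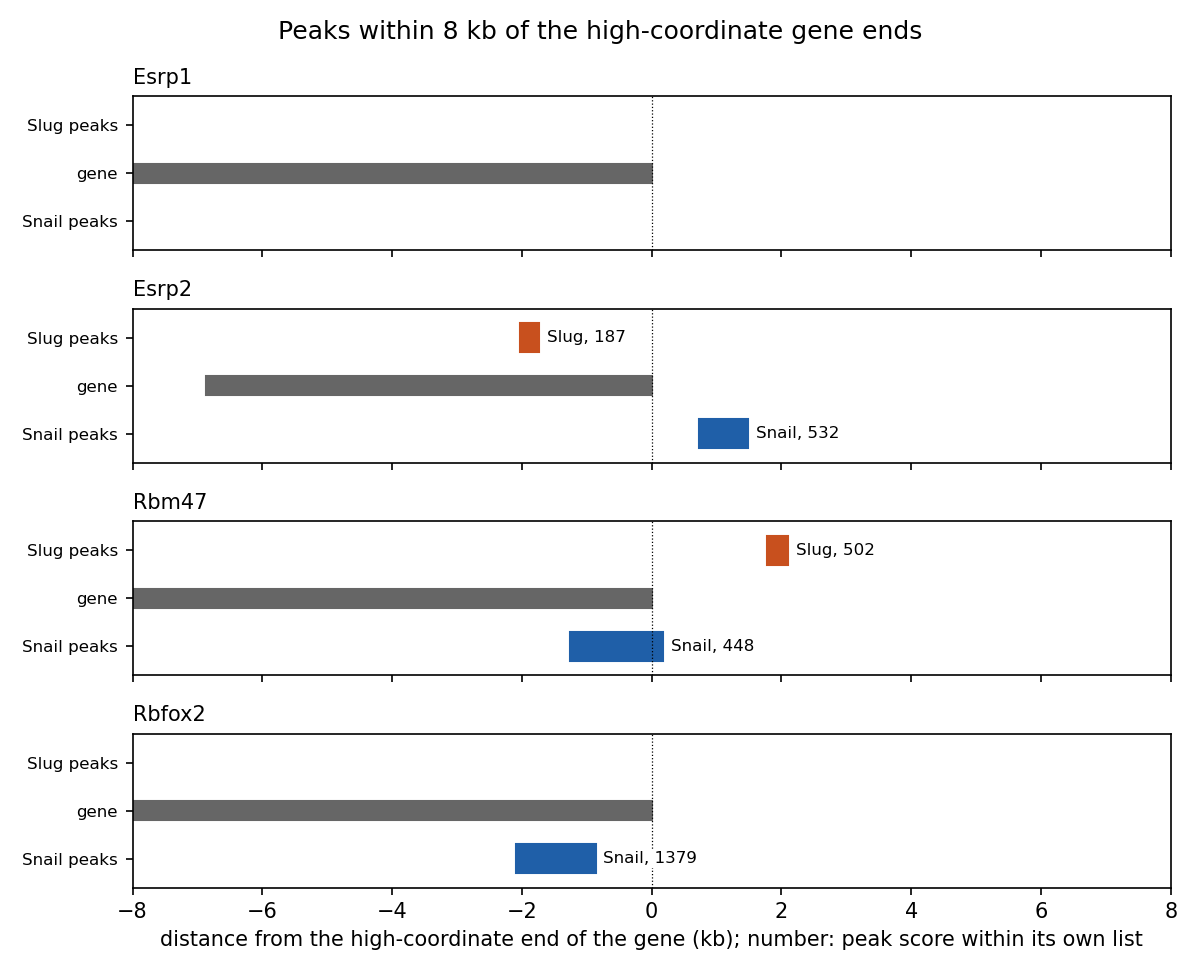
Peaks drawn to scale within 8 kb of the high-coordinate end of each gene, with distance in kb on the horizontal axis and each peak's score beside it. Snail peaks lie within 1 kb of the end at Esrp2, Rbm47 and Rbfox2, Slug peaks lie 1.73 and 1.77 kb from it at Esrp2 and Rbm47, and Esrp1 has none.

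All 4 genes had peaks of both factors in their 50 kb windows, which says little, since a Slug peak was there at 83.6% of protein-coding genes, a Snail peak at 78.3% and both at 71.8%. The number of peaks separated the genes more, but their windows ran from 107 kb at Esrp2 to 329 kb at Rbfox2. Per 100 kb of window, Esrp1, Esrp2, Rbm47 and Rbfox2 had 1.94, 3.74, 4.25 and 2.73 Slug peaks. In the same order they had 0.646, 2.81, 2.97 and 3.64 Snail peaks. Rbm47 had 10 Slug peaks, a number reached by 2.62% of protein-coding genes, and Rbfox2 had 12 Snail peaks, reached by 1.37%. Within their own span quintile those numbers were reached by 11.0% and 2.19%. That quintile holds genes of 57.1 to 2390 kb, beside 135 kb for Rbm47 and 229 kb for Rbfox2, so it allows for gene length only in part. Both peak numbers rest partly on low-scoring and distant peaks: at a score of at least 100 they fell to 4 and 5, and with 10 kb on each side to 6 and 5. The 9 Slug peaks of Rbfox2 were reached by 15.0% and the 7 Snail peaks of Rbm47 by 16.6% of that quintile. Esrp1 and Esrp2 had 3 and 4 Slug peaks, against medians of 3 and 2 in their quintiles, and 52.5% and 26.7% of those genes reached these numbers. Their Snail numbers of 1 and 3 stood against medians of 3, and were reached by 87.4% and 59.2%. In the 50 kb windows Slug peaks outnumbered Snail peaks at Esrp1, Esrp2 and Rbm47, whereas Snail peaks were more numerous at Rbfox2. Over all protein-coding genes 35.5% had more Slug and 43.5% more Snail peaks, and in the longest quintile 58.2% and 29.1%. The order changed with the settings, given here for Esrp1, Esrp2, Rbm47 and Rbfox2. With 10 kb on each side, Slug numbers were 0, 1, 6 and 7 and Snail numbers 1, 1, 4 and 5. At a score of at least 100 they were 2, 2, 4 and 4 for Slug and 1, 3, 4 and 5 for Snail. The lists differ in length and the depth behind them is unknown, so these numbers do not compare the strength of the factors.

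**Figure D3:**
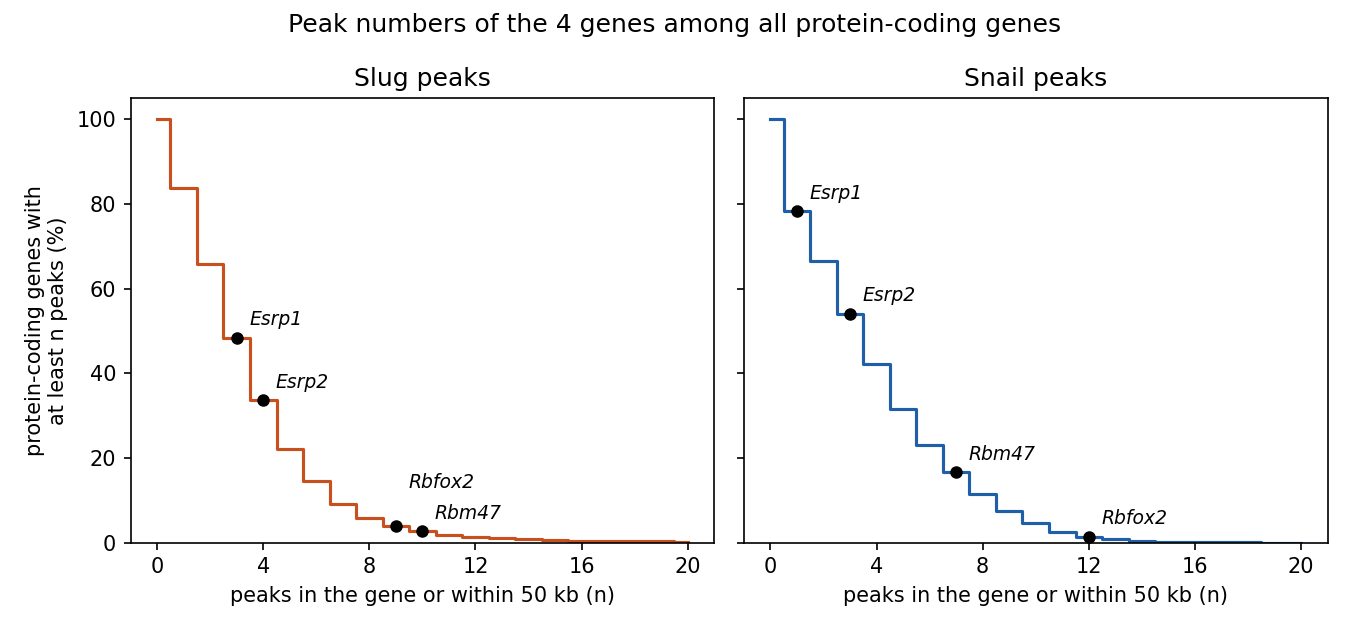
Percentage of all protein-coding genes (vertical axis) with at least the given number of peaks in the gene or within 50 kb (horizontal axis), for Slug on the left and Snail on the right, with the 4 genes as black points. Rbm47 and Rbfox2 lie far down the tail for Slug, and Rbfox2 for Snail, while Esrp1 and Esrp2 sit on the steep part. Gene length is not allowed for here. In the longest span quintile, genes of 57.1 to 2390 kb, those tail numbers were reached by 11.0% and 15.0% of genes for Slug and 2.19% for Snail.

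The lists shared 2 sites in the set. Of the 26 Slug peaks 2 (7.69%, 95% Wilson interval 2.14 to 24.1) overlapped a Snail peak, against 12.1% of all Slug peaks. Of the 23 Snail peaks 2 (8.70%, 2.42 to 26.8) overlapped a Slug peak, against 16.6% of all Snail peaks. Both intervals cover counting error only and treat the peaks as independent, although they come from 4 loci. They are wide and include the share of the whole list, so they set the peaks neither apart from it nor level with it. At the level of genes, Esrp2 and Rbm47 had a shared site in their windows, as did 35.0% of protein-coding genes. Neither shared site was inside one of the 4 genes or within 10 kb of it. With the overlapping ones included, 9 Slug peaks lay within 3 kb of a Snail peak and 8 Snail peaks within 3 kb of a Slug peak. In the whole lists these shares were 20.9% and 30.0%, against 34.6% and 34.8% in the set. Of the 9 and 8, 5 each came from Rbm47. The distance of 3 kb was chosen after the peaks had been seen.

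Many of the peaks were nearer to an end of another annotated gene, although 13 Slug and 9 Snail peaks met the span of a described gene. Some of those other ends lie within such a span, as do those of Gm24056 and 1700109K24Rik in Rbfox2. Of the 13 Slug and 14 Snail peaks outside the 4 spans, 8 and 8 overlapped another annotated gene. The nearest annotated gene end, noncoding genes and pseudogenes included, belonged to one of the 4 genes for 2 of the 26 Slug and 5 of the 23 Snail peaks. Ends of any annotated gene were within 1 kb of 2 Slug peaks (7.69%) and 9 Snail peaks (39.1%), and in the whole lists of 10.8% and 47.4%. By score the set was ordinary for Slug, with a median of 87.3 against 81.1, and 12 peaks at 100 or more (46.2%, against 39.7%). The Snail peaks of the set had a median score of 122 against 151, and 13 were at 100 or more (56.5%, against 63.0%). Median widths were 229 bp for Slug and 734 bp for Snail, beside 206 and 722 bp in the lists.

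At the 50 kb limit, the outermost peaks taken were a Slug peak 49.8 kb from Esrp2 with a score of 57.2, a Snail peak 49.2 kb from Rbfox2 with a score of 75.3, and the Rbm47 pair at 48.0 and 49.0 kb. The nearest peaks left out were a Snail peak 50.2 kb from Rbfox2 with a score of 125 and a Slug peak 54.5 kb from Rbm47 with a score of 146.

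Other splicing regulators, listed from general knowledge with EMT in mind, were set beside the 4 genes. A part in EMT was not checked for each of them. Of 22 such genes, among them the Ptbp, Mbnl, Celf and Nova families, 20 (90.9%) had a Slug peak in the gene or within 50 kb and 21 (95.5%) a Snail peak, beside 83.6% and 78.3% of all protein-coding genes. Of the 22, 12 fall in the longest span quintile, in which these shares were 96.0% and 86.4%. Slug was missing at Ptbp1 and Srsf1, and Snail at Rbm24. A shared site was present at 9 (40.9%), beside 35.0% of all protein-coding genes and 40.8% of the longest quintile. Inside the span, 14 (63.6%) had a Slug peak, beside 37.2% and 83.1% in the same order. A Snail peak was inside 21 (95.5%), beside 58.7% and 75.9%. Within 1 kb of an end, 15 (68.2%) had a Snail peak and 3 (13.6%) a Slug peak, where all protein-coding genes had 51.3% and 13.0% and the longest quintile 55.4% and 14.3%. The median was 4 peaks of each factor, against 2 Slug and 3 Snail peaks over all protein-coding genes and 4 and 3 in the longest quintile. The highest Slug scores were those of Rbfox1 (666), a splicing factor of neurons and muscle, and Nova1 (545), one of neurons. Tra2b and Srsf3, which encode splicing proteins of the serine/arginine-rich kind, had the highest Snail scores, 2344 and 1626. All 4 of these peaks touched the genes themselves. Rbfox1, a paralog of Rbfox2, had 25 Slug and 3 Snail peaks in its 1528 kb and flanks, and none of its Snail peaks lay within 1 kb of an end.

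Genes whose transcripts carry exons known to be regulated by the Esrp proteins were examined in the same way. Of the 14, 11 fall in the longest span quintile, so each share is set beside all protein-coding genes and beside that quintile. All 14 had a Slug peak in the gene or within 50 kb (83.6% and 96.0%) and 13 a Snail peak (78.3% and 86.4%). The medians were 6 Slug and 5 Snail peaks, beside 2 and 3 over all protein-coding genes and 4 and 3 in the quintile. A shared site was present at 7 (50%, beside 35.0% and 40.8%). A Slug peak lay inside the span at 13 (92.9%, beside 37.2% and 83.1%) and a Snail peak at 12 (85.7%, beside 58.7% and 75.9%). Within 1 kb of an end 10 (71.4%) had a Snail peak, beside 51.3% and 55.4%, and 4 (28.6%) a Slug peak, beside 13.0% and 14.3%. These shares rest on 14 genes, chosen with earlier results of these data known, and their differences from the other shares were not tested. Enah, an actin regulator with an epithelial exon, had the highest Slug score, 821, at a peak inside the gene. The next, 476, was in the window of Arhgef11, a guanine nucleotide exchange factor, at a peak 46.5 kb outside the gene, which had no Slug peak in its span. The highest Snail scores were 1605, at a peak 13.0 kb outside Exoc7, an exocyst subunit gene, and 1254, at a peak 0.166 kb outside Slk, a kinase gene. Fgfr2, the receptor whose epithelial exon is the textbook Esrp target, had 7 Slug peaks, the highest-scoring of which (202) lay 42.3 kb outside the gene, and was the gene without a Snail peak. Cd44 had 6 Slug and 3 Snail peaks, with highest scores of 303 and 576, both at peaks that touched the gene. Fgfr2 and Cd44 are named here after their values were seen.

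Likeness to the 4 genes was measured among these 36 genes by adding the differences in the numbers of Slug, Snail and shared Slug peaks. Nearest to Esrp1 were Grhl1, Mbnl3 and Rbm24, each at a sum of 2. Nearest to Esrp2 was Hnrnpm at 1, followed by Hnrnpa1, Grhl1, Mbnl3 and Arhgef11, each at 2. Rbm47 was nearest to Mbnl2, Mbnl1 and Itga6, each at 4, and Rbfox2 to Mbnl2 at 7 and Magi1 at 8. With 1 library of each factor the measure rests on 2 lists and describes peak numbers only.

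**Figure D4:**
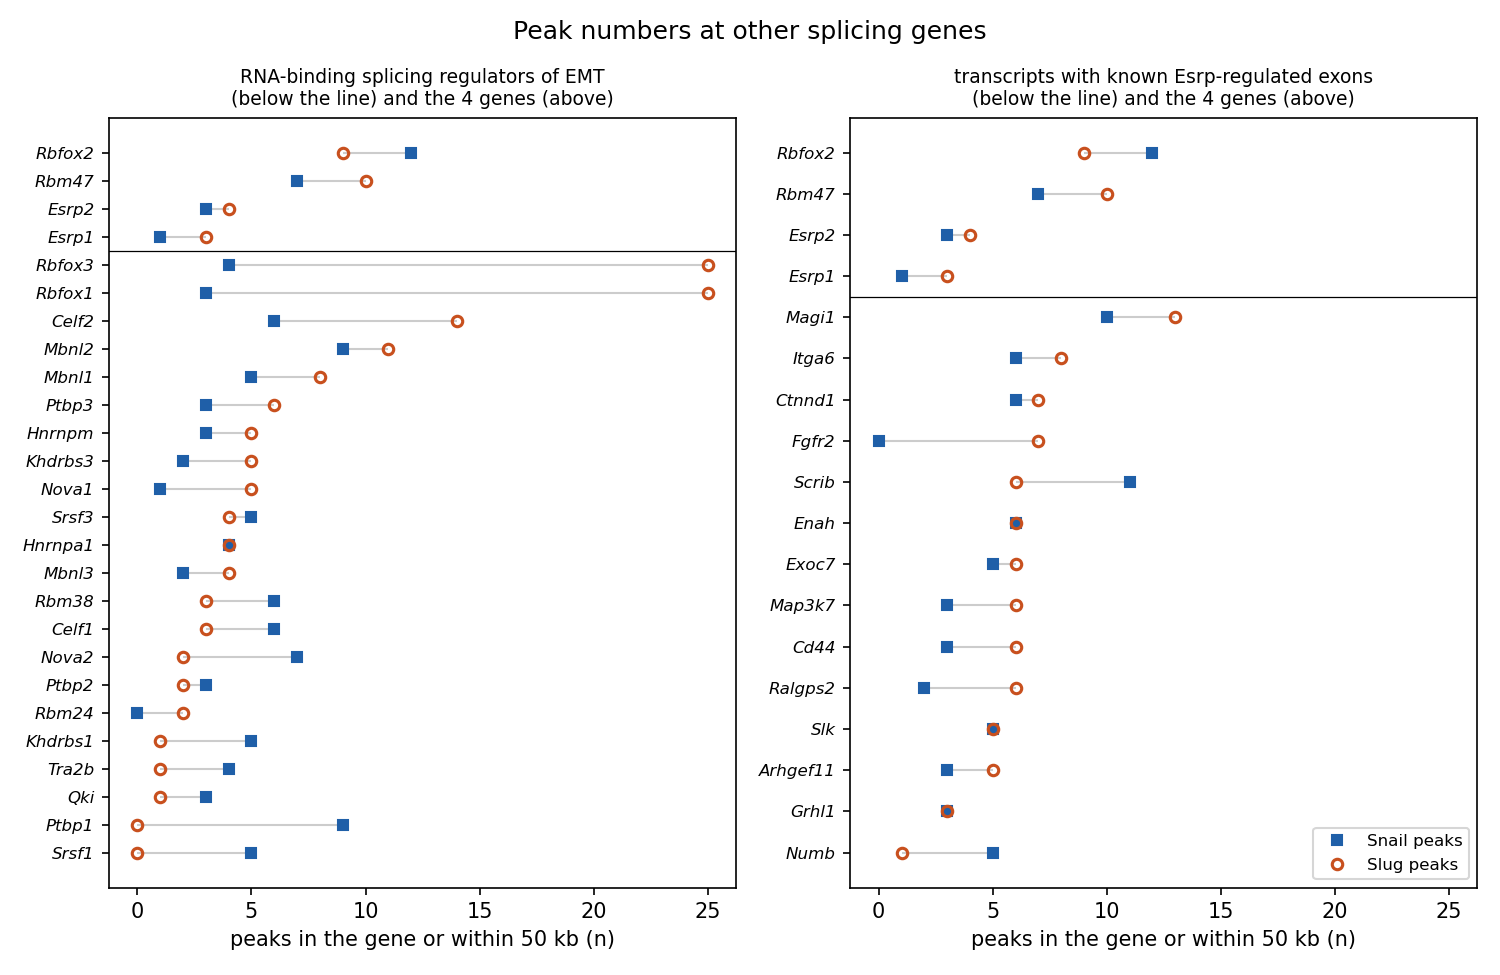
Number of Slug (open circles) and Snail (squares) peaks in each gene or within 50 kb (horizontal axis) for 22 splicing regulators on the left and 14 genes with Esrp-regulated exons on the right, with the 4 genes repeated above the line. Rbfox1 and Rbfox3 have 25 Slug peaks each, Fgfr2 and Rbm24 have no Snail peak, and Ptbp1 and Srsf1 have no Slug peak.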

How the data were processed

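The 2 deposited peak lists were read, 1 per ChIP library. The submitters' processing notes name Bowtie, MACS 1.4.2 and mm10 without settings or control. Chromatin was fixed with 1% formaldehyde and sheared to 200 to 500 bp, per the labels' protocols. The authors deposited a score for each peak, at least 50 in both lists, whose scale is not stated. No read counts were given, so depth and the error of a peak are unknown.

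Peak starts were made 1-based. Gene spans came from a RefSeq table of GRCm38.p6, the assembly of mm10 (49943 genes, 21887 protein-coding), which holds neither strand nor exons, so peaks were not placed in exons or introns. Start-site windows came from a RefSeq sequence table, in which all 1834 pairs of opposite-strand windows overlapping by at least 50 bases were reverse complements. A peak belonged to a gene when it met the span or the 50 kb on either side by at least 1 bp, and was shared when it met a peak of the other list by at least 1 bp. Distances run from the nearest edge of a peak. With 1 library per factor no test was made, and shares over all protein-coding genes, genes of the same span quintile or whole lists stand beside the counts. The interval code was tested on simulated intervals. Named were the 4 genes, the genes holding their outer peaks or nearest to them, the 2 genes per factor with the highest score in each of 2 further lists, and the 2 genes most alike in peak numbers, with any tied at the same sum. Qki was matched through its synonym Qk. A gene fixed for the second list is not reported here. The 4 genes and both lists were chosen with earlier results of these data known. Windows of other widths, a higher score and other definitions of overlap were tried. Python 3.11.15, numpy 2.4.6, pandas 2.3.3, scipy 1.17.1 and matplotlib 3.10.9 were used.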

Additional observations from a re-analysis of the deposited data

How the results depend on the processing

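The peak numbers depend on the window. With 10 kb on each side the 4 genes had 14 Slug and 11 Snail peaks, with 100 kb 37 and 35, and in the spans alone 13 and 9. Peaks with a score of at least 100 numbered 12 and 13. Taking peaks by their midpoints changed neither number. Shared Slug and shared Snail peaks numbered 0 and 0 with 10 kb and in the spans, 5 and 4 with 100 kb, 1 and 1 with a score of at least 100, and 1 and 1 with 50% reciprocal overlap, which kept the site near Rbm47. The other definition, midpoints within 500 bp, gave 2 and 2. The shares of protein-coding genes moved as well. A Slug peak was near 56.4% with 10 kb, 91.7% with 100 kb, 37.2% in the span and 61.3% with a score of at least 100. For Snail these shares were 66.9, 83.8, 58.7 and 73.5%, and for a shared site 18.5, 48.6, 10.9 and 15.0%. Among genes of the same span quintile the Slug share was 82.9% for Esrp2, 88.5% for Esrp1 and 96.0% for Rbm47 and Rbfox2. The Snail shares were 80.9, 87.4 and 86.4%, and those of a shared site 37.6, 36.9 and 40.8%. For single genes, 22 of 32 values moved by over 1.5 times, 18 of them downward and the rest upward. Fewer peaks in smaller windows or above a score follow from their construction. No paired analysis was possible because each factor has 1 library. Depth is unknown, so a missing peak is not a sign that a factor was absent.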
